A study of Mus musculus with 8 samples.

Results

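The genes described here had a probe that was detected on every array of untreated AtT20 cells and on no array of AtT20 cells incubated with HX630. A probe was chosen when it carried the accession of a curated coding transcript, was well above background on all 4 control arrays and on 0 of the 4 HX630 arrays, and had a mean log2 signal at least 1 lower with HX630. These criteria were met by 74 probes of 74 genes, of 19751 genes that could be named. The probes stood among 39429 on the array, 26107 probes of curated coding transcripts, and 19072 such probes that were well above background on all 4 control arrays, of which they made up 0.388%. The probes were selected on their detection and on the difference between the groups, so their values are given as a description and no test is made on them.

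AtT20 cells are an ACTH-secreting line from a mouse pituitary corticotroph tumor. HX630 is a synthetic compound that activates the retinoid X receptors (RXRs). The control group held 4 samples incubated for 48 hr in DMEM with 1% stripped FBS and no HX630, and the HX630 group held 4 samples given the same medium with 10 μM HX630 for 48 hr. The cells of both groups were of this single line, carried no transgene and had been grown to about 50% confluence before the incubation. The labels number the samples of each group as replicates but do not say whether they came from separate cultures, so any p-value measures only the spread between these samples, which may be technical.

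RXRs bind DNA as dimers, either with each other or with partner receptors such as the PPARs, LXRs and retinoic acid receptors, and a ligand turns them into activators of transcription. Expression of a gene can also fall after a nuclear receptor is activated, through other factors that the receptor changes. In corticotrophs, RXR agonists are studied for their effect on *Pomc*, the gene for the precursor of ACTH.

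Each sample was read on 1 single-color Agilent array. Signals are given as the log2 of the processed signal of Feature Extraction, less the 75th percentile of that array, so that 0 stands for the 75th percentile and a difference of -1 for a signal lowered to 50%. The 75th percentile of the intensities was 1335 to 1863 on the control arrays and 1803 to 1899 on the HX630 arrays, and each array had 69.6% to 73.4% of its probes well above background. The control arrays shared a slide and a scan, and the HX630 arrays shared another slide and scan, which means that the treatment cannot be told apart from the slide or the scan. All 6 corticotroph markers examined (*Pomc*, *Tbx19*, *Neurod1*, *Pitx1*, *Crhr1* and *Pcsk1*) were well above background on all 8 arrays, with *Pomc* at 8.03 in the control and 7.57 with HX630. The markers *Prl*, *Tshb*, *Lum*, *Pdgfra*, *Cdh5*, *Tek* and *S100b* of other pituitary and stromal cells were well above background on no array. Other markers of the same cells were so on all 8 arrays, among them *Gh*, *Lhb*, *Nr5a1*, *Col1a2* and *Pecam1*. Also on all 8 were *Kdr* (1.54 in the control and 1.18 with HX630), *Sox2* (-0.82 and -2.05), *Gfap* (-6.17 and -5.20) and *Aldh1a1* (-4.21 and -4.33). Over all 28526 probes tested with limma, 3183 (11.2%) were called lower and 2128 (7.46%) higher with HX630 with thresholds of 0.01 for the adjusted p and 1.5 for the fold change. With the median of each array as the scale in place of its 75th percentile, the split was 2655 lower and 2827 higher.

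The 74 probes were dim. Their mean control signals ran from -6.35 to -2.07, with a median of -5.70, whereas the median of the 19072 candidate probes was -0.75. The lowest signal that Feature Extraction called well above background was -6.93 to -6.34 on the control arrays, and 40 of the 74 control means lay less than 1 above the mean of these limits. The median of the 74 control means was above only 3.5% of the candidate probes, and the highest was above 36.6%. The signal of a probe depends on the probe as well as on the transcript, so these shares describe the brightness of spots and not the abundance of transcripts. On the HX630 arrays the means ran from -9.15 to -6.65, with a median of -7.53.

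**Figure D1:**
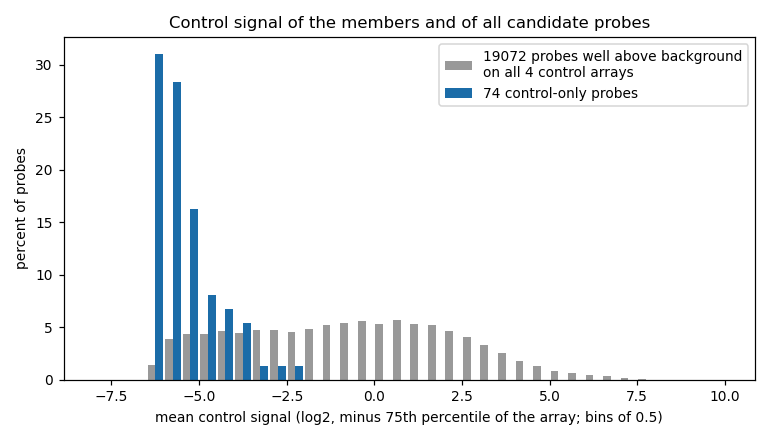
Percent of probes in each bin of 0.5 of the mean control signal (log2, less the array's 75th percentile), for the 19072 candidate probes (gray) and the 74 control-only probes (blue). The control-only probes gather at the dim end, with a median of -5.70 against -0.75, and none lies above -2.07.

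The differences between the groups (HX630 minus control) were between -6.52 and -1.01, with a median of -1.85, beside a median of -0.056 over all probes tested. For 72 of the 74 probes each HX630 array was lower than each control array, where 31.3% of all probes tested had this order. The rule fixes most of this order, and nothing is read from the count. The other 2, *Olfr371* and *Fam24a*, overlapped between the groups. The SD between control arrays was 0.012 to 1.258, with a median of 0.213, and the median SD between HX630 arrays was 0.364. In bulk RNA, fewer cells with a transcript and less of it per cell cannot be told apart.

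A difference that ends below background is not a measured fold change. Where Feature Extraction finds a spot not positive and significant against the background, it writes the error of the spot in place of a signal, to within 0.418% in these files. Such a spot has a processed intensity near 3.47 (the median of these spots), or about -9 on the log2 scale used here. Of the 74 probes, 56 were still positive and significant on all 4 HX630 arrays although not well above background, 14 were so on 1 to 3 of them, and 4 (*Dock1*, *Col14a1*, *Pfkfb3* and *Dnah5*) on 0. Folds are therefore given as bounds on the scale of the processed signal. The bound sets the mean of the 4 control arrays against a mean over the 4 HX630 arrays, in which a signal under the array's lowest well-above-background signal was raised to that limit. By this measure 18 probes were at least 4-fold lower with HX630, a further 32 at least 2-fold to 4-fold lower, and 24 had a bound under 2-fold. A bound given for a gene is that of its control-only probe. Other probes of some of these genes, *Col14a1* (-0.21) and *Alpk3* (0.22) among them, did not show it. The median of the bounds was 2.35-fold, and no bound was under 1. Some spots above the limit were still not well above background, as for *Fam184b* on HX630 array 1 (-6.28, limit -6.64). The bounds hold for the processed signal only. With another background correction, given below, *Yipf7* had a log2 difference of -3.77, smaller than its log2 bound of 4.96.

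**Figure D2:**
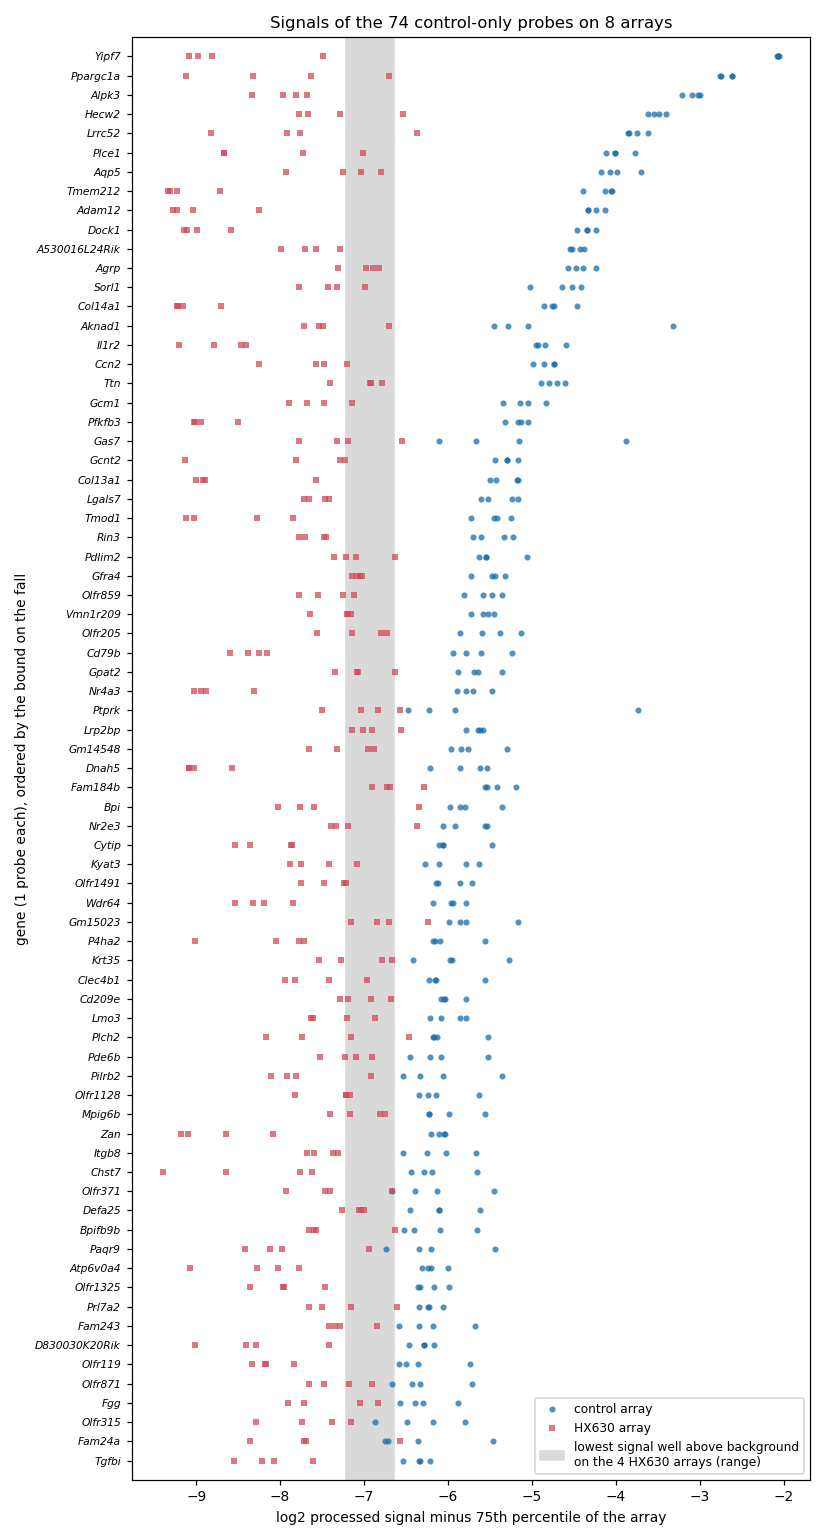
Signals of the 74 control-only probes (log2 of the processed signal, less the array's 75th percentile) on the 4 control arrays (blue circles) and the 4 HX630 arrays (red squares), ordered by the bound on the fall. The gray band is the range of the lowest signal well above background on the HX630 arrays, -7.22 to -6.64, and the control signals approach it from *Yipf7* at the top (-2.07) to *Tgfbi* at the bottom (-6.35).

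*Yipf7*, a member of the YIP1 family of Golgi membrane proteins, had the largest bound. Its signals were -2.07, -2.07, -2.08 and -2.05 on control arrays 1 to 4, and -7.49, -8.81, -8.98 and -9.08 on HX630 arrays 1 to 4. The processed intensities were 317 to 442 in the control and 3.51 to 10.0 with HX630, and the spot was positive and significant on only 2 of the 4 HX630 arrays. By its bound, the processed signal of *Yipf7* was at least 31.2-fold lower with HX630. Its control arrays had the smallest SD of the 74 genes, 0.012 (n = 4), and the gene has no other probe among those analysed here.

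Among 8 genes of transcription and metabolism, *Ppargc1a* came first. It encodes PGC-1α, a coactivator that drives mitochondrial biogenesis and oxidative metabolism and works through nuclear receptors. Its signals were -2.61, -2.61, -2.74 and -2.76 on the control arrays, and -6.70, -7.63, -8.32 and -9.12 on the HX630 arrays. The control arrays had an SD of 0.080 and the HX630 arrays, which lay far below them, one of 1.03 (n = 4), and the gene was at least 20.4-fold lower. A brighter probe of *Ppargc1a* on the same transcript was well above background on all 8 arrays, at 0.79 ± 0.12 (SD, n = 4) in the control and -4.15 ± 0.45 (SD, n = 4) with HX630. Its difference of -4.94 stands beside -5.26 for the control-only probe. The transcript was thus detected in both groups by this probe, and it was lower with HX630 by both.

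*Pfkfb3* encodes an enzyme that makes fructose 2,6-bisphosphate, the activator of the glycolytic enzyme phosphofructokinase. The control signals of its probe were -5.32, -5.17, -5.05 and -5.13, and those with HX630 were -8.50, -9.02, -8.94 and -9.01. None of the HX630 spots was positive and significant, so those 4 values are error estimates, and the bound was at least 3.63-fold. A second probe of the same transcript was well above background on no array.

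*Nr4a3* encodes NOR-1, an immediate early orphan nuclear receptor of the NR4A family, whose members activate *Pomc* in corticotrophs. Its control signals were -5.48, -5.78, -5.89 and -5.70, and its HX630 signals -8.31, -8.94, -9.03 and -8.88. The groups did not overlap, an order that the rule mostly fixes, and the bound was at least 2.49-fold. When spots marked as outliers were kept, *Nr4a3* no longer met the rule. *Gcm1*, a transcription factor of placental development, had a bound of at least 3.84-fold by its control-only probe (-5.09 ± 0.21 in the control, SD, n = 4), but its other probes went against this. They were well above background on all 8 arrays, with differences of -0.33, 0.09 and 0.22. The other members of the group were *Gpat2* (a glycerol-3-phosphate acyltransferase), *Nr2e3* (a nuclear receptor of photoreceptors), *Kyat3* (a kynurenine aminotransferase) and *Lmo3* (a LIM-only transcription cofactor), with bounds from 1.99-fold for *Lmo3* to 2.56-fold for *Gpat2*.

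Stretches of 250 bases before the start are shown for the 8 genes that are given here with their signals on all 8 arrays and hold ACGTG there, the core of the hypoxia response element (HRE), in either direction (CACGT on the other strand). The sequences are from RefSeq, assembly GRCm38.p6, and run 5′ to 3′ on the strand of the gene, ending at the last base before the start. Capitals mark ACGTG on either strand. *Pfkfb3* has a pair of listed starts that are both shown.
*Ppargc1a* (chr5:51567726-51567975, minus strand): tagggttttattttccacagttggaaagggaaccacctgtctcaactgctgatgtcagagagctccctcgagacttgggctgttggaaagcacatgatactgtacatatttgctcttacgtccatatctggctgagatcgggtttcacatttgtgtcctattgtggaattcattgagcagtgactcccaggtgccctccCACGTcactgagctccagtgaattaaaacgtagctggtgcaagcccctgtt
*Pfkfb3*, start A (chr2:11502091-11502340, minus strand): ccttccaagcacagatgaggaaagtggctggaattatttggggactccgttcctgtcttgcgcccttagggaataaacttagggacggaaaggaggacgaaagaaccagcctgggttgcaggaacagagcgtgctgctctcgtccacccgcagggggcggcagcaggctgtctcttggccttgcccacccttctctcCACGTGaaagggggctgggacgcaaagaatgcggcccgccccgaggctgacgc
*Pfkfb3*, start B (chr2:11553930-11554179, minus strand): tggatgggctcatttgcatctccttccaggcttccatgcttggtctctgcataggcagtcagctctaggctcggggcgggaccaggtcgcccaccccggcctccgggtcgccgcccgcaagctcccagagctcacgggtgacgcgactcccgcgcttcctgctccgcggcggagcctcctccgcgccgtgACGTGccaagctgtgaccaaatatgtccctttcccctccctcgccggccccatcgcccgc
*P4ha2* (chr11:54100674-54100923, plus strand): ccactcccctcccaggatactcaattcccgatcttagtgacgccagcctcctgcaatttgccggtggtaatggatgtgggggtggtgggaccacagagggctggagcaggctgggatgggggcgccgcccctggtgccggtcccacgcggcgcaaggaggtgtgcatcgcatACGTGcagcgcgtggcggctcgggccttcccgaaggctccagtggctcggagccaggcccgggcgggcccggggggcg
*Nr4a3* (chr4:48045055-48045304, plus strand): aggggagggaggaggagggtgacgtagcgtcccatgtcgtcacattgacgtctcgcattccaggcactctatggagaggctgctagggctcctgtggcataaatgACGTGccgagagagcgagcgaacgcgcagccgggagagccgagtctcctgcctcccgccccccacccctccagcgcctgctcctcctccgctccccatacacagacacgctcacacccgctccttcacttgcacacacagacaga
*Aqp5* (chr15:99590778-99591027, plus strand): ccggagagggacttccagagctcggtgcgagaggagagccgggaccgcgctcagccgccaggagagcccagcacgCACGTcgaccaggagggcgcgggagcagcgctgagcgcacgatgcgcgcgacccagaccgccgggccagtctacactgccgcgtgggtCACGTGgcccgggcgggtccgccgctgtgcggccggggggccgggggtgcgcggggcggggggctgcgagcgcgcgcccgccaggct
*Hecw2* (chr1:54195035-54195284, minus strand): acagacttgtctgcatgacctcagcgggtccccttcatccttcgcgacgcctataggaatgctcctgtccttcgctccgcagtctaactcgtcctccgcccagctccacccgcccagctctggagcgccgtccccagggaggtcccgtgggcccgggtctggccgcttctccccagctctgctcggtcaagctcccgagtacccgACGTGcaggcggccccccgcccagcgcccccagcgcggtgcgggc
*Sorl1* (chr9:42124298-42124547, minus strand): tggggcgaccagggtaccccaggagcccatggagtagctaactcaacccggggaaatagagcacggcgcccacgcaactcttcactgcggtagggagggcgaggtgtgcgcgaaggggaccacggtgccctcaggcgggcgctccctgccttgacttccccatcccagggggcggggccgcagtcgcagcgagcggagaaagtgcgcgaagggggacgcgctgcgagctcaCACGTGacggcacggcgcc
*Il1r2* (chr1:40085843-40086092, plus strand): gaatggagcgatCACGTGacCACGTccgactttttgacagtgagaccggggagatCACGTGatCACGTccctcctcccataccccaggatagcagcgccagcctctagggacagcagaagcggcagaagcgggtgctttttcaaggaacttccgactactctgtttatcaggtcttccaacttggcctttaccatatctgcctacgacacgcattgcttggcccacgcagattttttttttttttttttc

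Counted from the start, the core in the stretches shown began at -51 in *Ppargc1a*, at -53 and at -60 before the starts of *Pfkfb3*, at -78 in *P4ha2*, at -145 in *Nr4a3*, at -175 and -87 in *Aqp5*, at -45 in *Hecw2*, at -19 in *Sorl1*, and at -238, -230, -195 and -187 in *Il1r2*. In *Aqp5* at -87, *Pfkfb3* at -53, *Sorl1* at -19 and *Il1r2* at -238 and -195 the letters were CACGTG, the E-box, which holds ACGTG on both strands. The table of promoters (250 bases before to 50 after the start) held 68 stretches for 60 of the 74 genes and 32851 stretches in all, and 14 genes, *Yipf7*, *Ccn2*, *Agrp* and *Adam12* among them, were not in it. ACGTG was in 20.6% of the stretches of the 74 genes and in 19.6% of all stretches. The E-box CACGTG was in 10.3% and 7.15%, and the 95% Wilson interval of the former, 5.08% to 19.8%, held the latter. In the same order, the shares were 19.1% and 20.8% for TGACG. They were also set side by side for the AP-1 sequence TGANTCA (8.82% and 7.81%), for AGGTCA, a core sequence of nuclear receptors (17.6% and 16.3%), and for AAAGGTCA, the NBRE to which NR4A receptors bind (1.47% and 1.51%), which contains AGGTCA. The whole CRE TGACGTCA, which contains TGACG, was in 0 of the 68 stretches and in 1.79% of all. GGGCGG (35.3% and 35.7%), CCAAT (35.3% and 37.4%), TATAAA (14.7% and 13.6%) and GCGTGGGCG, the EGR sequence (1.47% and 0.612%), were also searched on both strands. These matches are letters in a window and do not show that a factor binds there.

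Among 6 genes of the sarcomere and cytoskeleton, *Alpk3* and *Ttn* had bounds above 4-fold. *Alpk3* encodes an alpha-kinase of heart and skeletal muscle. Its signals were -3.02, -3.21, -3.09 and -2.99 in the control and -7.68, -7.96, -7.81 and -8.34 with HX630, at least 15.5-fold lower. A second probe on the same transcript was well above background on 0 control arrays and all 4 HX630 arrays, close to the detection limit, with a difference of 0.22, so the probes of *Alpk3* disagree.

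*Ttn* encodes titin, the giant protein that spans the sarcomere from Z-disc to M-band. Its control-only probe read -4.61, -4.89, -4.79 and -4.70 in the control and -6.78, -6.93, -6.92 and -7.41 with HX630, at least 4.53-fold lower. A pair of other *Ttn* probes on another transcript were above background on each of the 8 arrays. They went from -1.42 ± 0.090 to -4.64 ± 0.060 and from 1.29 ± 0.23 to -2.04 ± 0.15 (SD, n = 4), differences of -3.22 and -3.32. Titin transcripts were therefore detected with HX630, at a lower level by both of these probes. *Tmod1* (tropomodulin, which caps actin filaments) had a bound of 2.97-fold, *Pdlim2* (a PDZ and LIM domain protein) one of 2.92-fold, *Dnah5* (a dynein heavy chain of motile cilia) one of 2.34-fold and *Krt35* (a hair keratin) one of 2.04-fold.

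Of the other genes in a list of muscle contractile genes, 41 were tested, and limma called 12 lower and 5 higher with HX630. Among all 15297 genes tested, each by its brightest tested probe, 11.2% were called lower and 8.38% higher. *Myoz3*, a calsarcin of the Z-disc, fell by 5.03 (standard error 0.269, adjusted p = 2.47e-06), from -0.999 ± 0.035 to -6.03 ± 0.60 (SD, n = 4). *Neb*, which encodes nebulin, fell by 2.33 (standard error 0.088, adjusted p = 5.2e-07). *Actc1*, cardiac actin, went the other way. It was well above background on all 4 HX630 arrays and on no control array, and was at least 2.31-fold higher.

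Of 9 genes of intracellular signaling, *Hecw2*, *Plce1* and *Dock1* had bounds above 4-fold. *Hecw2*, a HECT ubiquitin ligase of the NEDD4 family, read -3.54, -3.62, -3.40 and -3.48 in the control and -6.53, -7.29, -7.78 and -7.67 with HX630, at least 11.3-fold lower. Its 2 other probes, on another transcript, were well above background on no control array, and one of them was so on 3 HX630 arrays with a difference of 0.21. *Plce1*, phospholipase C epsilon, which is activated by Ras, read -4.11, -4.01, -3.77 and -4.01 in the control and -7.01, -7.73, -8.67 and -8.67 with HX630, at least 8.31-fold lower. *Dock1*, an activator of the GTPase Rac, read -4.34, -4.34, -4.46 and -4.24 in the control. Its HX630 spots were positive and significant on no array, and the bound was at least 6.43-fold. The remaining genes of the group were *Gas7*, *Rin3*, *Ptprk*, *Cytip*, *Plch2* and *Pde6b*, with bounds from 1.95-fold to 3.50-fold.

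In this group 1 array could decide a value. *Ptprk*, a receptor tyrosine phosphatase, read -3.74 on control array 2 but -5.92, -6.23 and -6.48 on the others. Without that array its difference was -0.77 in place of -1.39, and *Ptprk* no longer met the rule. *Gas7*, a growth arrest gene of neurons, read -3.88 on control array 3 but -5.15, -5.66 and -6.11 on the others, and its difference was -1.56 without array 3, in place of -2.0. *Aknad1*, among the genes of unclear role, likewise read -3.32 on control array 3 and -5.45 to -5.05 on the others. Without array 3 its difference was -2.10, in place of -2.59.

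Of 10 genes of the matrix and cell surface, *Adam12*, *Col14a1* and *Ccn2* had bounds above 4-fold. *Adam12* encodes a membrane metalloprotease that sheds growth factors. Its signals were -4.24, -4.33, -4.13 and -4.33 in the control and -8.25, -9.23, -9.04 and -9.28 with HX630, at least 6.82-fold lower. A brighter probe was well above background on all 8 arrays and went from -1.52 ± 0.049 to -3.45 ± 0.17 (SD, n = 4), a difference of -1.93, and another was so on all 4 control arrays and 1 HX630 array with a difference of -1.46. All *Adam12* probes were thus lower with HX630.

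*Ccn2* encodes connective tissue growth factor, a matricellular protein induced by TGF-β and by serum. It read -4.74, -4.73, -4.99 and -4.86 in the control and -7.20, -7.57, -8.25 and -7.48 with HX630. The spots were positive and significant on all 4 HX630 arrays, and the bound was at least 4.59-fold. *Tgfbi*, another TGF-β induced matrix protein, was the gene nearest to the detection limit, at -6.21, -6.35, -6.53 and -6.33 in the control, and its bound was 1.60-fold. A list of TGF-β and matricellular response genes held both. Of its 22 other genes tested with limma, 6 (27.3%) were called lower and 1 higher. The shares over all genes tested were 11.2% lower and 8.38% higher, and 25.5% of the other genes of all lists were called lower. *Snai1*, a transcriptional repressor, fell by 2.02 (adjusted p = 8.82e-07) and *Id2*, an inhibitor of helix-loop-helix factors, fell by 1.76 (adjusted p = 7.85e-08).

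The collagens *Col14a1* and *Col13a1* were the 2 members of this family among 25 collagen genes detected in the control. That is 8.0%, beside 0.388% of all candidate probes, and the count is too small to read. *Col14a1*, a collagen that associates with fibrils, read -4.46, -4.86, -4.74 and -4.76 in the control, and its HX630 spots were positive and significant on no array, which gave a bound of at least 5.0-fold. A second probe on the same transcript did not show this. It was well above background on all 8 arrays, at -4.71 ± 0.16 in the control and -4.92 ± 0.11 with HX630 (SD, n = 4). *Col13a1*, a transmembrane collagen, read -5.43, -5.18, -5.16 and -5.50 in the control and -7.57, -9.0, -8.92 and -8.89 with HX630, at least 3.28-fold lower. Of 6 fibroblast markers, 3 were well above background on all 4 control arrays and 4 on all 4 HX630 arrays, and their summed signal (in units of the 75th percentile) was 0.109 to 0.130 in the control and 0.116 to 0.164 with HX630.

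*P4ha2* encodes a subunit of the prolyl hydroxylase that modifies collagen. It read -6.15, -6.09, -5.56 and -6.18 in the control and -8.05, -7.72, -9.01 and -7.77 with HX630, and its bound was 2.05-fold. The others were *Gcnt2* and *Chst7* (a glycosyltransferase and a sulfotransferase of cell surface glycans, 3.33-fold and 1.85-fold), *Lgals7* (galectin-7, 3.14-fold) and *Itgb8* (an integrin that activates TGF-β, 1.88-fold). *Gcnt2* read -5.16, -5.29, -5.44 and -5.29 in the control and -7.23, -7.29, -9.13 and -7.81 with HX630. Its groups did not overlap, an order that the rule mostly fixes. *Lgals7* stood in a list of desmosome, keratin and tight junction genes. Of its 36 other genes tested with limma, 1 was called lower, *Tjp3*, which fell by 1.37 (adjusted p = 1.57e-07). A further 5 were called higher, *Krt7* (2.13, adjusted p = 1.5e-07) and *Pkp1* (1.60, adjusted p = 5.95e-07) among them. Over all genes tested, 11.2% were called lower and 8.38% higher.

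Of 7 genes of ligands and receptors, *Agrp*, *Sorl1* and *Il1r2* had bounds above 4-fold. *Agrp* encodes the agouti-related peptide, which blocks the melanocortin receptors that the *Pomc* product α-MSH activates. It read -4.57, -4.23, -4.47 and -4.39 in the control and -6.82, -7.31, -6.89 and -6.97 with HX630. The signal with HX630 was positive and significant on all 4 arrays, with a mean of -7.0 ± 0.22 (SD, n = 4), and the bound was at least 5.68-fold. *Sorl1*, a sorting receptor of the endosomal pathway, read -5.02, -4.52, -4.41 and -4.64 in the control and -7.43, -7.77, -7.32 and -6.99 with HX630, at least 5.0-fold lower. *Il1r2*, the decoy receptor of interleukin-1, read -4.95, -4.59, -4.84 and -4.93 in the control and -8.79, -8.46, -9.20 and -8.41 with HX630, at least 4.59-fold lower. It was the only member among 40 interleukin and interleukin receptor genes detected in the control (2.5%, beside 0.388% of all candidate probes), a count too small to read.

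*Gfra4*, the receptor of the neurotrophic factor persephin, had a bound of 2.78-fold by the control-only probe, while its other probes, both well above background on all 8 arrays, differed by 0.21 and -0.26. *Paqr9* (a membrane progestin receptor), *Prl7a2* (a placental hormone of the prolactin family) and *Fgg* (the fibrinogen gamma chain) had bounds of 1.80-fold, 1.72-fold and 1.62-fold.

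Among 3 genes of channels and pumps, *Lrrc52*, an auxiliary subunit of potassium channels, read -3.84, -3.75, -3.85 and -3.62 in the control and -6.37, -7.92, -8.82 and -7.76 with HX630, at least 9.17-fold lower. *Aqp5*, the water channel of secretory glands, read -3.99, -4.17, -4.07 and -3.70 in the control and -7.25, -6.80, -7.93 and -7.04 with HX630, at least 7.47-fold lower. It was the only gene whose other probe was also detected on control arrays (2 of 4) and on no HX630 array, with a difference of -1.36. It was also the 1 member among 7 aquaporin genes detected in the control (14.3%, beside 0.388% of all candidate probes), a count too small to read. *Atp6v0a4*, a subunit of the proton pump of acid-secreting cells, had a bound of 1.79-fold.

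Receptors of smell were the most numerous family. Of 1055 olfactory receptor genes with a probe, 294 were well above background on all 4 control arrays, and 9 of these (3.06%) were control-only, beside 0.388% of all candidate probes. Of the candidate probes with a control mean between -6.5 and -6.0, 23 of 266 were control-only, and between -6.0 and -5.5 it was 21 of 742, and the control means of the olfactory receptors lay in or near these ranges. When the groups were exchanged in the rule, 8 olfactory receptor genes were detected only with HX630. Together with the vomeronasal receptor *Vmn1r209* the receptors had bounds of 1.62-fold to 2.78-fold, and all 10 were positive and significant on all 4 HX630 arrays. *Olfr859* was the one with the largest bound, at -5.36, -5.81, -5.58 and -5.48 in the control and -7.12, -7.25, -7.78 and -7.55 with HX630. *Olfr205* read -5.38, -5.85, -5.59 and -5.13 in the control and -6.80, -7.14, -7.56 and -6.72 with HX630, with a bound of 2.65-fold, and its other probe, well above background on 4 control and 3 HX630 arrays, had a difference of -0.86. The bounds of *Olfr1325* and *Olfr119* were 1.76-fold and 1.66-fold, with differences of -1.73 and -1.83. The family was completed by *Olfr1491*, *Olfr1128*, *Olfr371*, *Olfr871* and *Olfr315*. *Vmn1r209* read -5.45, -5.73, -5.58 and -5.52 in the control and -7.20, -7.16, -7.64 and -7.19 with HX630. The groups did not overlap for *Olfr859*, *Olfr205* or *Vmn1r209*, an order that the rule mostly fixes.

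Genes of immune cells were 7, with bounds of 1.82-fold to 2.63-fold. *Cd79b*, a signaling chain of the B cell receptor, came first, at -5.23, -5.94, -5.78 and -5.60 in the control and -8.60, -8.38, -8.16 and -8.25 with HX630. The others were *Bpi*, *Clec4b1*, *Cd209e*, *Pilrb2*, *Mpig6b* and *Defa25*, which encode antimicrobial proteins and receptors of myeloid cells and platelets. Of 6 macrophage and lymphocyte markers with a probe, all were well above background on all 8 arrays. Their summed signal (in units of the 75th percentile) was 8.25 to 10.1 in the control and 6.32 to 8.17 with HX630. The brightest markers, which weigh most in the sum, were *Itgam* (2.56 in the control, 2.55 with HX630) and *Cd3e* (1.30 and -0.15). Dimmer ones were *Csf1r* (-0.72 and -1.44), *Adgre1* (-4.05 and -4.46) and *Cd79a* (-4.80 and -5.25). *Ptprc*, which marks all leukocytes, was at -3.16 in the control and -3.61 with HX630. The part of these markers in the immune genes was not tested.

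The role of the other 14 genes, *Yipf7* among them, was unclear or fitted no group. *Tmem212*, a transmembrane protein, read -4.06, -4.39, -4.04 and -4.13 in the control and -8.72, -9.33, -9.23 and -9.31 with HX630, where 1 of the 4 spots was positive and significant, and its bound was at least 7.33-fold. *A530016L24Rik* read -4.52, -4.38, -4.43 and -4.55 in the control and -7.29, -7.99, -7.70 and -7.57 with HX630, at least 5.89-fold lower. Its other probes were also lower with HX630, by -2.04 on all 8 arrays and by -3.29 with detection on 1 HX630 array. *Aknad1* had a bound of 4.77-fold. The bounds of *Lrp2bp*, *Gm14548*, *Fam184b*, *Wdr64*, *Gm15023*, *Zan*, *Bpifb9b*, *Fam243*, *D830030K20Rik* and *Fam24a* were 1.61-fold to 2.38-fold.

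Detection by another probe set a limit on calling these genes absent from HX630-treated cells. Of the 74 genes, 49 had no other probe and 25 had 34 other probes. Of these 34, 17 probes of 12 genes were detected on each of the 8 arrays, 8 were so on no array, and 28 had a lower mean with HX630. For 18 of the 25 genes another probe was well above background on at least 1 HX630 array, so for these genes the control-only pattern belonged to the probe and not to the gene. *Ppargc1a*, *Adam12*, *Ttn* and *A530016L24Rik* had another probe on all 8 arrays that was lower with HX630 by more than 1, as had *D830030K20Rik* (-1.64), whose brighter other probe, also on all 8 arrays, had a difference of -0.49. *Col14a1*, *Gcm1*, *Gfra4*, *Bpi*, *Kyat3*, *Wdr64* and *Plch2* had such a probe with differences between -0.34 and 0.22 alone.

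**Figure D3:**
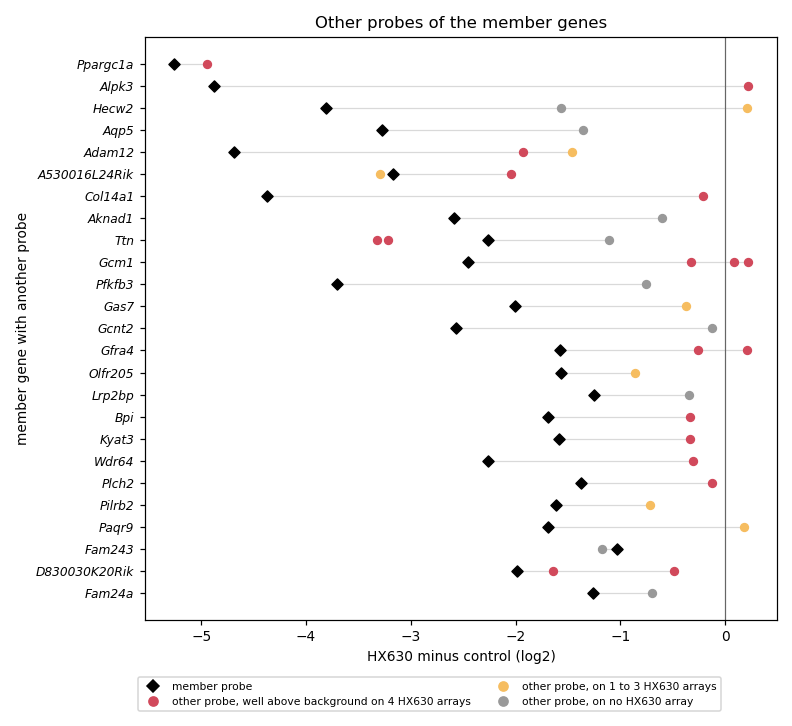
Difference between the groups (HX630 minus control, log2) of the control-only probe (black diamonds) and of the other probes (circles) of the 25 genes with more than 1 probe, colored by the number of HX630 arrays on which the other probe was well above background. The other probe of *Ppargc1a* (-4.94) lies beside its control-only probe (-5.26), while that of *Col14a1* (-0.21) lies far from it (-4.37).

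Another way of making the signals gave smaller differences. It took the median spot intensity in place of the processed signal, corrected it by normexp and added an offset of 16, which by itself draws dim spots together, and the share of each step was not tested. With it all 74 probes stayed lower with HX630, but the differences shrank to between -3.77 and -0.65, with a median of -1.05. A difference of at least 1 was kept by 40 of the 74. *Yipf7* had a difference of -3.77 in place of -6.52, *Ppargc1a* of -3.0 in place of -5.26, *Alpk3* of -2.81 in place of -4.87 and *Dock1* of -2.34 in place of -4.61.

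**Figure D4:**
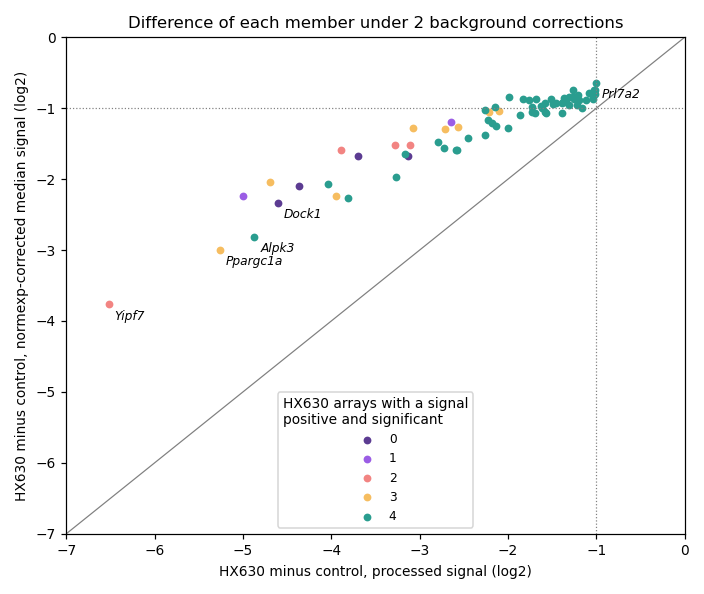
Difference between the groups (HX630 minus control, log2) of each of the 74 probes by the processed signal (horizontal) and after normexp correction of the median spot signal (vertical), colored by the number of HX630 arrays on which the spot was positive and significant. The gray line marks equal values and the dotted lines -1, and all points lie above the gray line, between -3.77 and -0.65 on the vertical axis.

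At the threshold of the rule, *Prl7a2* (-1.006), *Olfr871* (-1.019) and *Defa25* (-1.021) lay just inside, and *Dqx1* (-0.964), *Cyp2g1* (-0.904) and *Ear2* (-0.657) just outside. By detection alone 78 probes were found, the last of them *Nlrp12* (-0.649). The rule with the groups exchanged was met by 78 probes, 0.403% of the 19332 probes well above background on all 4 HX630 arrays. Their median HX630 signal was -5.89, their highest -2.72 and their median difference 1.53. The array-wise medians over the 74 genes were -5.79 to -5.46 in the control and -7.77 to -7.18 with HX630. Control array 1 was the highest of its group for 40 of the 74 genes and HX630 array 1 for 51 of them.

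Lists of pathway genes placed some of these genes beside others. Of 18 lists, 6 held 7 of the 74 genes between them. A further 23 of the 74 belonged to a family named by symbol and 44 to neither. In a list of hypoxia-induced genes, to which *P4ha2* belongs, 22 of the 39 other genes tested were called lower and 0 higher, with a median difference of -0.73. Over all genes tested the median was -0.034, with 11.2% called lower and 8.38% higher, and these shares also stand beside the lists that follow. *Car9*, a carbonic anhydrase of the cell surface, fell by 4.67 (standard error 0.159, adjusted p = 3.42e-07), from 1.69 ± 0.21 to -2.98 ± 0.28 (SD, n = 4). *Egln3*, a prolyl hydroxylase that senses oxygen, fell by 2.62 (adjusted p = 6.68e-07).

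In a list of glucose transport and glycolysis, to which *Pfkfb3* belongs, 20 of the 30 other genes tested were called lower and 0 higher, with a median of -0.94. *Hk2*, hexokinase 2, fell by 3.18 (standard error 0.068, adjusted p = 8.91e-08), from 2.02 ± 0.095 to -1.16 ± 0.10 (SD, n = 4). *Eno3* and *Ldhb*, an enolase and a lactate dehydrogenase subunit, had log2 fold changes of -3.16 (adjusted p = 3.71e-07) and -3.06 (adjusted p = 4.61e-06).

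In a list of immediate early genes, which are induced quickly by growth factors and by cAMP, *Nr4a3* and *Ccn2* were control-only. Of the 44 other genes tested, 23 were called lower and 1 higher, with a median of -0.78. *Nr4a1*, which encodes Nur77 and belongs to the same receptor family as *Nr4a3*, fell by 3.33 (standard error 0.129, adjusted p = 5.64e-07), from 3.82 ± 0.065 to 0.49 ± 0.28 (SD, n = 4). *Rgs4*, a regulator of G protein signaling, fell by 3.19 (adjusted p = 4.88e-06). *Vgf*, a neuropeptide precursor, fell by 3.03 (adjusted p = 6.26e-07).

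**Figure D5:**
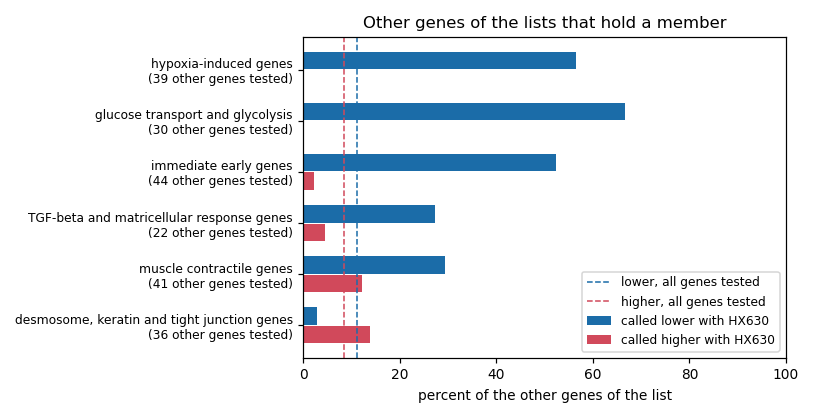
Percent of the other genes tested that limma called lower (blue) or higher (red) with HX630 in the 6 lists that hold a control-only gene; the dashed lines are the percents over all genes tested, 11.2% lower and 8.38% higher. The bars for lower genes reach 66.7% for glycolysis, 56.4% for hypoxia and 52.3% for immediate early genes, and 2.78% for desmosome, keratin and tight junction genes.

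None of the 74 genes stood in the other 12 lists. Over the distinct other genes of all 18 lists, 157 of 615 tested (25.5%) were called lower, beside 11.2% of all genes tested. Families named by symbol that were well represented in the control but held no control-only gene included 265 solute carriers, 320 zinc finger genes, 50 potassium channels and 87 homeobox genes. With 0.388% of all candidate probes control-only, a count of 0 in families of this size is near that share and sets none of them apart.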

How the data were processed

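RNA of 4 control and 4 HX630 samples was read on 1-color arrays in the Cy3 channel. The authors deposited each array's Feature Extraction 10.7.3.1 output, in which the processed intensity of a spot is background-subtracted and detrended and carries no scaling between arrays. A deposited table of log2 values held the same signals less the 75th percentile of each array (100% of the values of 39429 probes within 0.01). The study's methods give 1.5-fold and a p-value of 0.01 as criteria and name no correction for multiple tests.

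In Python 3.11.15, outlier spots and control spots were removed and repeat spots of a probe were combined by the mean of their log2 signals. The 75th percentile over the probes of each array was then subtracted in R 4.3.3, and the fits used limma 3.58.1. A probe counted as well above background, positive and significant, or not, by Feature Extraction's own flags. Probes well above background on at least 4 of 8 arrays were tested (lmFit and eBayes, no block, Benjamini-Hochberg adjustment over all of them), and a gene in a list was represented by its brightest tested probe. The control-only genes passed this filter only through the control arrays. The calculation was tested on simulated data. The number of arrays limits the precision.

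Accessions were matched without versions to RefSeq on GRCm38.p6, which named 25520 of the 26107 probes of curated coding transcripts. Promoter stretches came from the same assembly. The members, the lists, the families and the motifs were chosen with earlier results of these data known. The roles by which the genes are grouped were assigned by hand after their values were seen.

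Genes were named by a rule: the 20 genes with the largest bound, the 5 with the highest control signal, those in a list, up to 4 of a family, those next to the threshold, those whose probes disagree, and up to 3 called genes of each list that holds a member. Other genes (*Gas7*, *Olfr371*, *Fam24a* and the remaining members given with their role and bound) were named after their values were seen. Of the genes the rule names, 1 is not reported here.

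Alternatives were other scalings, normexp background correction (offset of 16, on the median spot and background intensities), the deposited table, other detection rules and thresholds, all accessions, the replicate number as a block, the methods' t-test, and each array left out in turn. Keeping outlier spots and requiring no positive and significant HX630 spot were added after the data were seen. Probe oligonucleotide and protein sequences were not used here.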

Additional observations from a re-analysis of the deposited data

Results flagged for a closer look

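Of 74 groups of 4 arrays examined for single named genes and for array-wide values, 6 had an array apart from the others, where chance gives about 3.7 (1 in 20). The measure is the gap of the extreme array to its neighbor as a share of the range of the 4 arrays. In the control, *P4ha2* had array 3 at -5.56 against -6.18 to -6.09 on the others (share 0.848), *Clec4b1* had array 1 at -5.56 against -6.22 to -6.14 (0.878), and *Cd209e* had array 1 at -5.78 against -6.08 to -6.03 (0.842). With HX630, array 1 was apart for 3 genes that are not control-only: *Eno3* at 2.81 against 2.35 to 2.37 (0.956), *Rgs4* at -0.43 against -1.24 to -1.15 (0.888) and *Krt7* at 4.32 against 4.42 on each of the others (0.963). The HX630 arrays of the control-only genes were not examined in this way, since none of them was well above background.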

How the results depend on the processing

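The number of control-only probes, 74 as described, was 40 with normexp correction, 26 with positive and significant spots in place of spots well above background (4 of them shared), 116 when 1 HX630 array could be well above background, and 35 with a minimum difference of 2. It was 4 when no HX630 spot could be positive and significant, a choice made after seeing the data. Other scalings gave 60 to 73 and the authors' deposited values 74. Leaving out each array in turn gave 72 to 96 (96 without control array 2, and 62 of the 74 shared without control array 1). Keeping outlier spots, also tried after seeing the data, gave 73 and lost *Nr4a3*; leaving them out had been planned as an alternative and became the main setting.

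The number detected only with HX630, 78, was 2 with normexp, 10 with positive and significant spots, 133 with no minimum difference and 22 with a minimum of 2, and 75 to 111 with each array left out. Over all probes, 3183 lower and 2128 higher calls became 7246 and 5760 with no fold change threshold. With normexp, 1355 were higher. With quantile normalization 2731 were lower and 2710 higher, and with each array left out 2782 to 3366 were lower and 1845 to 2563 higher. The methods' t-test called 3125 and 2107 without adjustment and 2881 and 1978 with it. With the replicate number as a block (replicate block), 3343 were lower and 2206 higher; deviations of samples with the same number correlated at 0.60, -0.02, 0.31 and 0.47, so the numbers were not taken to pair the samples. The 157 list genes called lower became 135 to 157, and the promoter shares stayed within their intervals with only the bases before the start. The median difference over all probes tested, -0.056, was 0.20 with no scaling and -0.14 with normexp, and -0.056 to 0.032 under the other scalings. Of the differences followed for 39 control-only genes, none changed sign under other scalings, normexp, the deposited values or with each array left out. The causes were not tested. Signal over background limits the fold changes, which are bounds.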
